A study of Mus musculus with 13 samples.

Results

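The leukocyte adhesion molecules of the endothelium are 10 genes, out of 36109 genes with a listed transcript, that were chosen by name for their role in catching leukocytes on the vessel wall: Sele, Selp, Selplg, Madcam1, Cd34, Vcam1, Icam1, Icam2, Jam2 and F11r. Their RNA was followed in 13 libraries of mice kept in room air. Aortic endothelial cell (EC) RNA came from 3 mice of either genotype, named EC WT 1 to 3 for Hmox2+/+ and EC KO 1 to 3 for Hmox2-/-. Whole heart RNA gave 4 Hmox2+/+ libraries (heart WT 1 to 4) and 3 Hmox2-/- libraries (heart KO 1 to 3). The paper gives a smaller group size for hearts than there are heart WT libraries. Whether each heart WT library came from a separate mouse is therefore not settled here. The Hmox2+/+ mice were littermate controls, and Hmox2-/- mice lack heme oxygenase 2 in every tissue. The sequenced mice were young animals by the study's own account, and their sex is not given in the sources used here. EC RNA was lysed out of the aortic lumen and heart RNA was taken from frozen tissue with another kit, so tissue and kit cannot be told apart. Neither is a purified cell population, and in such bulk samples fewer cells of a type and less RNA per cell cannot be told apart.

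Leukocytes leave the blood in steps. Selectins on activated endothelium (E-selectin, Sele; P-selectin, Selp) catch flowing leukocytes by sugar-bearing ligands such as PSGL-1 (Selplg), and then the immunoglobulin-type molecules VCAM-1, ICAM-1 and ICAM-2 hold them by their integrins until they cross the junctions, where JAM-A (F11r) and JAM-B (Jam2) sit. In resting endothelium ICAM-2 and the junctional molecules are made steadily, while E-selectin, VCAM-1 and ICAM-1 are classically switched on by NF-kB after inflammatory cytokines.

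The genes lie on GRCm39 chromosomes 1 (Sele, Selp, F11r and Cd34), 3 (Vcam1), 5 (Selplg), 9 (Icam1), 10 (Madcam1), 11 (Icam2) and 16 (Jam2). Sele (163867401 to 163886055) and Selp (163942833 to 163977595) are neighbors on the plus strand, 56.8 kb apart. Jam2 (84570764 to 84623269) shares chromosome 16 with Hmox2, at a distance of 80.0 Mb.

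Promoters are printed for Icam1, Sele and Selp, and whether their motifs bear on the genotype differences was not tested. RefSeq promoter sequences (GRCm38.p6, the 250 bases before the start site) were matched for Icam1, Sele, Selp, Madcam1, F11r and Cd34. Capitals mark every match to GGNNNTTCC on either strand, the core of an NF-kB site. All 3 are on the plus strand.
Icam1 promoter, chr9:21015690-21015939: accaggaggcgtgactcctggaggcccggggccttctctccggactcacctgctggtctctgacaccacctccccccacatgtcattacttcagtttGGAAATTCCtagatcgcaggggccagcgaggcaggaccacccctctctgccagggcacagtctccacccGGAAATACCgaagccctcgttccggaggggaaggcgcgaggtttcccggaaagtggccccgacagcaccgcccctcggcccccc
Sele promoter, chr1:164047984-164048233: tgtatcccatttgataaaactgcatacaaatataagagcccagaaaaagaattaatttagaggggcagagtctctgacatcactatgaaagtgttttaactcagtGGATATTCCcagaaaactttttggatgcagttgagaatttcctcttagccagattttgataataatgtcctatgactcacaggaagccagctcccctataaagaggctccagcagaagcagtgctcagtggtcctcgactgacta
Selp promoter, chr1:164115014-164115263: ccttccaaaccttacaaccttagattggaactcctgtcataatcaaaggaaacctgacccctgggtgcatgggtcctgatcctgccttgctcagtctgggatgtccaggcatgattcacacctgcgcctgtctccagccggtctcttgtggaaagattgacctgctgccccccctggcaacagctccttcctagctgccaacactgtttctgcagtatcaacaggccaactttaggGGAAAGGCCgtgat
Icam1 held 2 such matches, Sele 1 and Selp 1, and 15.7% of 32817 promoters of this length hold at least 1. Sele and Selp each also held 1 TGANTCA (found in 6.75% of promoters), and Sele a TATAAA (12.4%). Madcam1 held 2 matches to the kappaB consensus, which contain its 2 GGNNNTTCC matches (3.90% of promoters hold the consensus). F11r held 1 TGANTCA and no GGNNNTTCC, and Cd34 held none of the motifs. These are letter matches in a short window, not measured sites.

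Depth was 26067147 to 31619776 estimated counts per library except in heart WT 1, which had 7268626. Hmox2 was 63.9 to 76.2 CPM (library-scaled counts) in EC WT and 12.6 to 14.7 CPM in EC KO libraries, and 37.3 to 42.5 against 7.53 to 8.90 CPM in hearts, so each library matched its genotype label. The Y-linked gene Ddx3y was nearly absent from EC KO 2 (1.03 CPM) and EC KO 3 (0.92 CPM) and at 37.0 to 86.5 CPM in the other 11 libraries. The 4 Y-linked genes examined summed to 2.51 TPM in EC KO 2 and 2.85 TPM in EC KO 3. They summed to 78.4 TPM in EC KO 1 and 56.7 to 71.5 TPM in EC WT. By these genes EC KO 2 and EC KO 3 look female and EC WT male. Sex and genotype are thus largely confounded in the EC comparison. EC KO 1 was the single Hmox2-/- EC library that was like the EC WT libraries in this respect, and its values are pointed out where results rest on the EC KO group. All 15 endothelial markers were detected in each group, with a summed level of 993 to 2281 TPM (per-length shares of a library) in EC and 203 to 358 TPM in heart libraries. Adipocyte markers reached 7557 to 15264 TPM in the EC libraries.

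Levels per length (TPM) placed Cd34, a sialomucin of endothelium and progenitor cells, first in EC WT with 134 ± 43.8 TPM (SD, n = 3). Icam2 (71.8 ± 23.5), Vcam1 (63.3 ± 19.97), F11r (48.2 ± 6.81), Icam1 (33.1 ± 12.1), Selp (30.8 ± 9.36) and Jam2 (30.1 ± 9.79 TPM) followed. Each of these neighbors overlapped the next, whereas all 3 values of Jam2 (20.4 to 40.0 TPM) lay above those of Selplg (7.98 ± 4.78 TPM). Sele was the lowest member detected in EC WT, with 5.04 ± 2.998 TPM, and overlapped Selplg. Madcam1, the vascular addressin of gut and lymphoid venules, had 0 counts in 5 of 6 EC libraries and 2 counts in EC KO 2, and 7 counts over all 13 libraries, so its change could not be tested at this depth.

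In heart WT the order was another one. Jam2 was first with 35.8 ± 3.65 TPM (SD, n = 4), followed without overlap by Cd34 (28.2 ± 3.55), F11r (13.4 ± 1.53), Icam2 (9.33 ± 1.41) and Vcam1 (3.86 ± 0.451 TPM). Icam1 (2.50 ± 0.701 TPM) overlapped Vcam1, and Selplg (0.820 ± 0.305 TPM) overlapped Sele (0.244 ± 0.117 TPM). Selp came last but for Madcam1, at 0.0893 ± 0.0642 TPM. In the Hmox2-/- groups the order changed at few places, with Jam2 above F11r in EC KO (60.4 ± 6.89 TPM, overlapping it) and Icam2 above F11r in heart KO (18.5 ± 3.63 TPM, overlapping it). TPM are shares of a library, and mitochondrially encoded RNA took 37.3% to 43.9% of heart WT and 22.3% to 27.0% of heart KO counts, so genotypes were compared on TMM-scaled CPM.

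To determine whether the loss of Hmox2 went with a change of these molecules in aortic ECs, the genotypes were compared with edgeR's quasi-likelihood test. Of the 9 members tested, 5 rose in Hmox2-/- mice and none fell, while 18.1% of 15301 genes passed the same test and 10% passed it as higher. At an unadjusted p under 0.05, 7 were higher and 0 lower (35.3% of genes in either direction), with edgeR as with DESeq2. The 5 were Selp, Cd34, Vcam1, Icam2 and Jam2. In 7 of 9 members, with Icam1 and F11r beside those 5, every EC KO library was above every EC WT library, which held for 22.0% of all genes tested. Jam2 alone passed together with a log2 fold change of at least 1 (9.28% of genes in either direction). The median log2 fold change of the 9 was 0.65 against -0.02 for all genes tested.

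**Figure D1:**
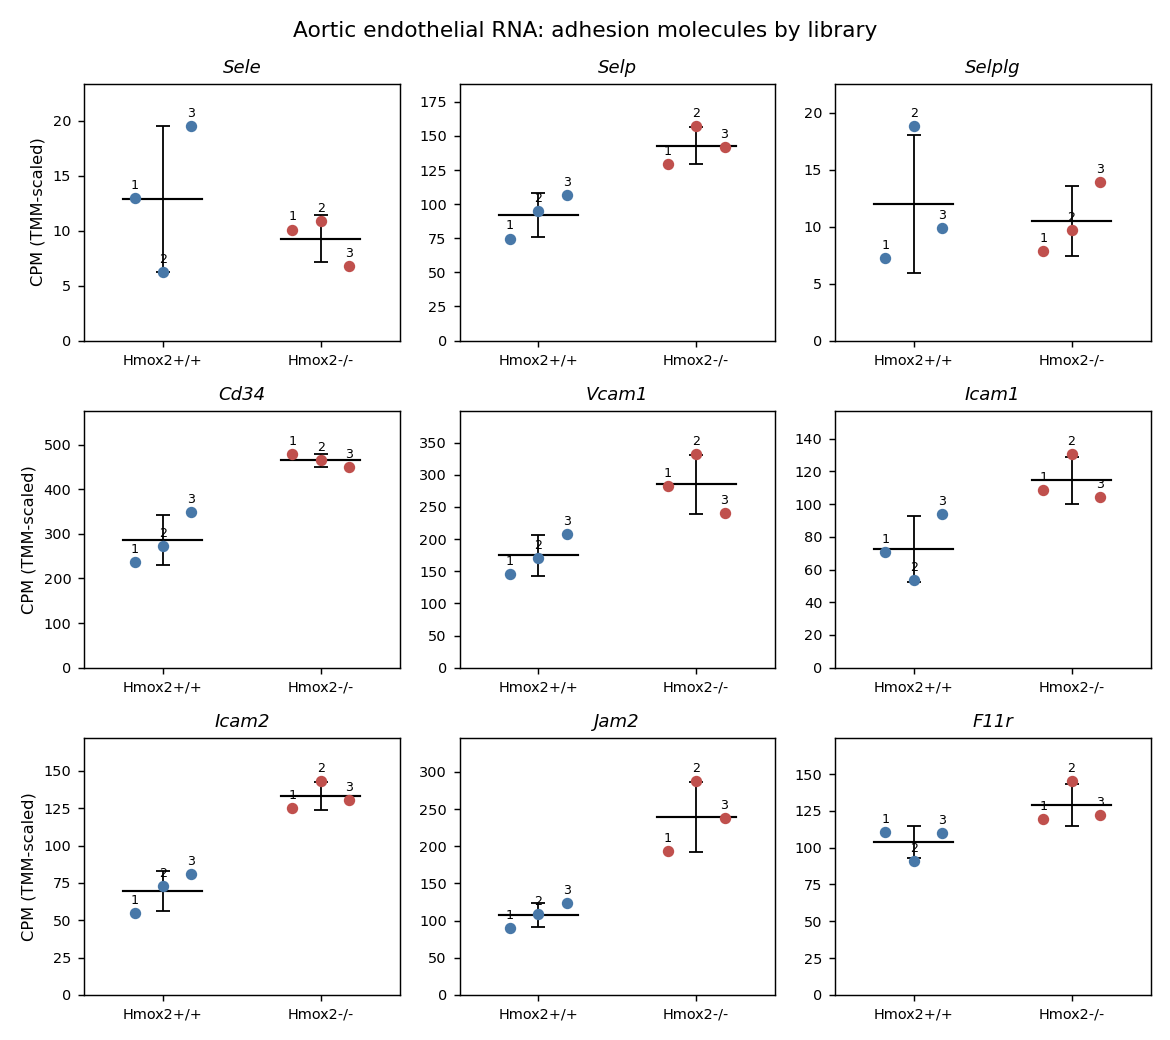
CPM (y axis, from 0) of 9 adhesion molecules in each aortic endothelial library, with replicate numbers beside the points, the group mean as a line and the SD as a bar (n = 3 per genotype). The 2 genotypes do not overlap in Selp, Cd34, Vcam1, Icam1, Icam2, Jam2 and F11r, and overlap in Sele and Selplg.

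Among the selectins, Selp was 74.8, 94.7 and 106 CPM in EC WT 1 to 3 and 130, 157 and 142 CPM in EC KO 1 to 3. The 3 Hmox2-/- libraries were all above the highest Hmox2+/+ library, and the log2 fold change was 0.64 (SE 0.16, edgeR adjusted p = 0.0319). P-selectin is also stored in platelets. Of 7 platelet markers tested, 3 passed as higher in EC KO (Pf4, Gp1ba and Clec1b), while Tubb1 (-1.65), Ppbp (-0.84) and Itga2b (-0.50) had log2 fold changes below 0 that did not pass, and the median of the list was 0.13. The 9 markers summed to 36.8 to 76.8 TPM in EC WT and 90.4 to 159 TPM in EC KO. Their part in the Selp result was not tested.

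Sele, made almost only by activated endothelium, did not follow Selp. It was 12.995, 6.22 and 19.5 CPM in EC WT and 10.1, 10.8 and 6.80 CPM in EC KO. The groups overlapped, EC WT 3 was the highest and EC WT 2 the lowest of the 6 libraries, and the log2 fold change of -0.48 had a 95% interval of -1.38 to 0.42 (adjusted p = 0.409).

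Selplg, the ligand carried mainly by leukocytes, was 7.27, 18.8 and 9.92 CPM in EC WT and 7.86, 9.73 and 13.9 CPM in EC KO. The highest value was in EC WT 2, which was also the library with most Ptprc (CD45, the pan-leukocyte marker; 45.7 CPM against 14.5 to 32.7 CPM in the other 5). No change was detected (log2 fold change -0.19, 95% interval -1.05 to 0.66, adjusted p = 0.736). Of 19 leukocyte markers, 4 rose in EC KO (Cd68, Adgre1, Lyz2 and Mrc1, all of macrophages) and none fell in edgeR. Of all genes tested, 18.1% were called in either direction. DESeq2 called 6 of the markers higher and 1 lower. In edgeR 10 of the 19 had a log2 fold change above 0. Among those below 0 without passing were S100a9 (-1.64), S100a8 (-1.25), Cd79a (-0.95), Cd79b (-0.90) and Ptprc (-0.19). The list summed to 392 to 938 TPM in EC WT and 694 to 1295 TPM in EC KO.

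Cd34 was 237, 272 and 348 CPM in EC WT and 480, 464 and 449 CPM in EC KO. All EC KO values were higher and lay close together, and the fitted log2 difference was 0.70 (SE 0.17, adjusted p = 0.0318). With the offset for length and GC content it was 0.48 and not called (adjusted p = 0.0878).

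Of the integrin ligands, Vcam1, which binds VLA-4 on monocytes and lymphocytes, was 145, 170 and 209 CPM in EC WT and 282, 333 and 241 CPM in EC KO. The groups did not overlap, and Vcam1 rose by 0.71 on the log2 scale (SE 0.18, adjusted p = 0.0375). This call was lost in 9 of 18 alternative settings, among them an offset for transcript length and GC content, under which the value was 0.17 (adjusted p = 0.543).

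Icam1, a ligand of the beta2 integrins, was 70.6, 53.8 and 94.1 CPM in EC WT and 109, 131 and 104 CPM in EC KO. The groups were apart, but EC WT spread widely, and the log2 fold change of 0.65 (SE 0.21) did not pass edgeR's test (adjusted p = 0.0649). DESeq2 called it (adjusted p = 0.0218), as did edgeR with the length and GC offset (0.85, adjusted p = 0.0345).

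Icam2, the constitutive ICAM of endothelium, was 55.1, 72.8 and 80.9 CPM in EC WT and 125, 143 and 131 CPM in EC KO. Every EC KO value was above the highest EC WT value, and the fitted difference was 0.94 on the log2 scale (SE 0.16, adjusted p = 0.0107). Of the 31-base words in the GENCODE M39 transcripts of Icam2, 23.3% also occur in other genes (15.5% within its coding sequence), mostly in the overlapping gene Prr29. Its main transcript Icam2-201 has 6452 bases there but 1282 bases in the deposited output. The shared part of the sequence that was used for counting was therefore not measured. Whether a part of the Icam2 counts belongs to Prr29 was not settled.

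Jam2, which encodes the junctional JAM-B, was 90.1, 109 and 123 CPM in EC WT and 194, 288 and 238 CPM in EC KO. It had the largest fold change of the members, 1.16 on the log2 scale (2.23-fold, SE 0.19, adjusted p = 0.00919). F11r was 110, 90.9 and 110 CPM in EC WT and 119, 145 and 122 CPM in EC KO. The libraries of both genotypes were apart but the difference was small (log2 fold change 0.31, 95% interval 0.00 to 0.62, adjusted p = 0.142).

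The EC calls depended on single libraries. EC KO 1 was above every EC WT library in the same 7 members, but by itself against the 3 EC WT libraries it gave no call (0 members in edgeR, 4 at an unadjusted p under 0.05, and 49 genes in all). Without EC WT 1, EC WT 2, EC KO 1 or EC KO 2 in turn 2 members were called, without EC KO 3 only 1, and without EC WT 3 the count was 6. The calls over all genes changed as well, from 2766 in the main fit. They were 1379, 1665, 1583 and 1042 without EC WT 1, EC WT 2, EC KO 1 and EC KO 2 in turn. Without EC KO 3 they were 638, and without EC WT 3 they were 3596. Jam2 was called in each of these 6 fits (log2 fold change 1.01 to 1.29), Icam2 in 5 (adjusted p = 0.0512 without EC KO 3), and Selp, Cd34 and Vcam1 only in the fit without EC WT 3. The fold changes themselves stayed between 0.51 and 0.86 for these 3.

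Markers of some other cell types in the aortic RNA also differed between genotypes. Their counts are to be read against the 18.1% of all genes called in ECs. Cardiomyocyte markers fell in 9 of 10 cases (summed level 114 to 687 TPM in EC WT and 5.72 to 9.47 TPM in EC KO), mesothelial markers in 4 of 5 (10.5 to 73.9 against 4.92 to 6.19 TPM) and smooth muscle markers in 3 of 7 (1995 to 3182 against 604 to 2272 TPM). The smooth muscle sum of EC KO 1 (2272 TPM) lay within the EC WT range, and those of EC KO 2 (604 TPM) and EC KO 3 (654 TPM) lay below it. Fibroblast markers rose in 3 of 6 (1056.1 to 2076 against 2474 to 3389 TPM). None of the 6 adipocyte markers (10033 to 15264 against 7557 to 9194 TPM) and none of the 5 erythroid markers (4730 to 9628 against 3981 to 8919 TPM) passed. Of the 15 endothelial markers 5 rose (Pecam1, Tie1, Cldn5, Ecscr and Sox18) and 1, Kdr, fell (-0.58), while Emcn (-0.47) and Flt1 (-0.31) were below 0 without passing, with summed levels of 993 to 1909 TPM in EC WT and 2073 to 2281 TPM in EC KO. No marker of these lists was at 0 throughout either EC group.

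Each member was also set against 5 endothelial genes (Cdh5, Pecam1, Tie1, Erg and Robo4) within its own library, as log2(TPM + 0.1) minus their mean. The reference itself was 0.49 higher in EC KO on the log2 scale (exact permutation test, two-sided p = 0.2). Relative to it, Jam2 was -0.53 ± 0.06 in EC WT and 0.03 ± 0.21 in EC KO, Icam2 0.71 ± 0.19 and 1.13 ± 0.04, and Cd34 1.61 ± 0.07 and 1.82 ± 0.13 (SD, n = 3 each), with no overlap between genotypes. These 3 of 9 members compare with 5.81% of all genes tested that were apart and higher in EC KO on this scale. Their differences were 0.56, 0.42 and 0.21, each with the smallest p that 3 against 3 libraries allow (exact permutation test, two-sided p = 0.1, adjusted p = 0.3). Selp (0.15), Icam1 (0.18) and Vcam1 (0.20) overlapped on this scale, and F11r (-0.18), Selplg (-0.70) and Sele (-0.86) were lower in the mean but overlapped too. When the edgeR fit was scaled to the endothelial genes instead, the median of all genes moved to -0.56, Jam2 alone passed as higher (log2 fold change 0.63) and Sele as lower (-0.96), and F11r turned to -0.23. In that fit 6630 of 15301 genes were called, against 2766 in the main fit.

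**Figure D2:**
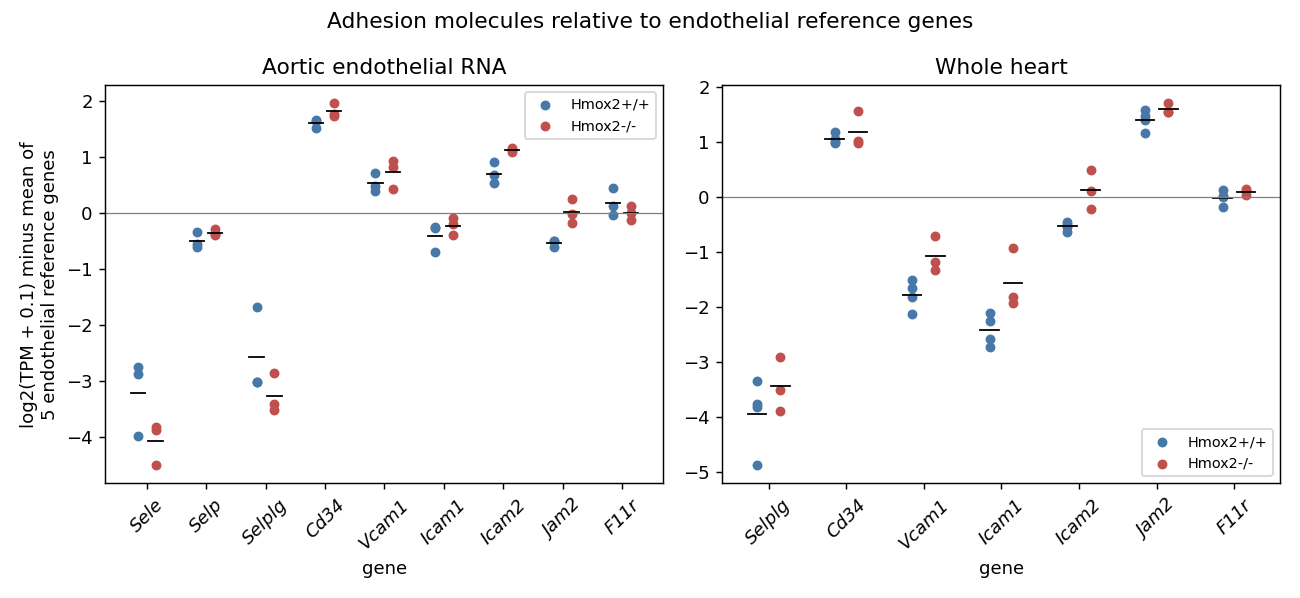
Level of each member relative to 5 endothelial reference genes (y axis, log2(TPM + 0.1) minus the mean of the reference genes) in aortic endothelial RNA (left) and whole heart (right). Points are libraries and lines are group means. Icam2, Jam2 and Cd34 are apart in aortic RNA, and Vcam1, Icam1 and Icam2 in heart.

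In heart tissue 3 of 9 members tested rose in Hmox2-/- mice and none fell, against 33.4% of 13816 genes called and 17.2% called as higher. At an unadjusted p under 0.05, 4 were higher and 0 lower (44.8% of genes in either direction), with edgeR as with DESeq2. The 3 were the integrin ligands Vcam1, Icam1 and Icam2. Together with Selp and F11r, 5 of 9 were higher in every heart KO library than in any heart WT library, which held for 20.6% of the genes tested. None of the 3 called members reached a log2 fold change of 1 (6.71% of genes did with an adjusted p of at most 0.05). The median over the 9 was 0.28 against -0.01 for all genes.

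**Figure D3:**
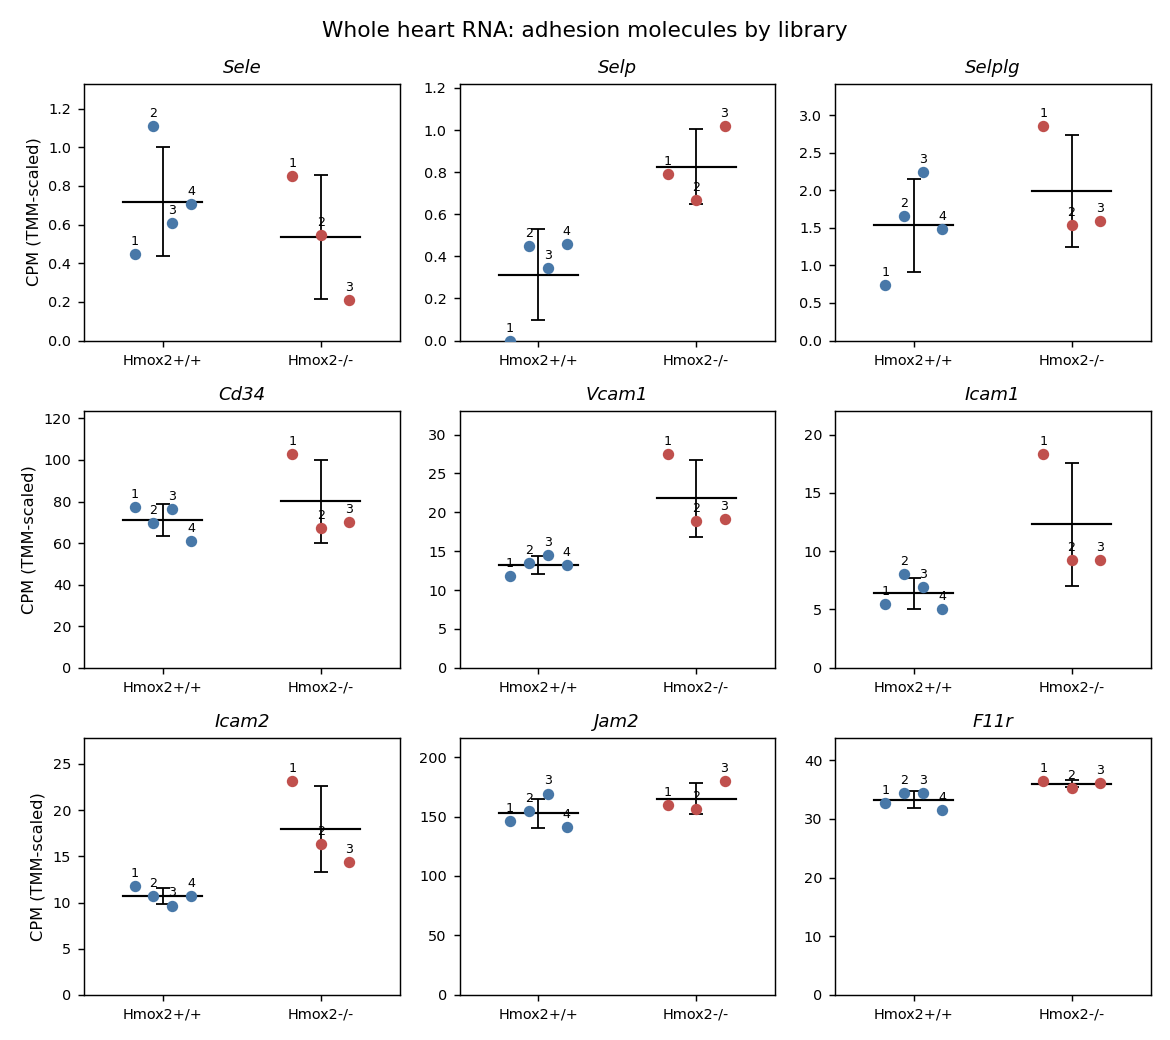
CPM (y axis, from 0) of 9 adhesion molecules in each whole heart library, with replicate numbers beside the points, the group mean as a line and the SD as a bar (n = 4 Hmox2+/+ and 3 Hmox2-/-). The genotypes are apart in Selp, Vcam1, Icam1, Icam2 and F11r, and heart KO 1 is the highest library in Vcam1, Icam1, Icam2, Cd34, Selplg and F11r.

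Vcam1 was 11.7, 13.5, 14.5 and 13.2 CPM in heart WT 1 to 4 and 27.6, 18.8 and 19.1 CPM in heart KO 1 to 3. The groups were apart and heart KO 1 stood above the other 2, at a log2 difference of 0.71 (SE 0.15, edgeR adjusted p = 0.00485). Without heart KO 1 it was 0.50 and still called.

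Icam1 was 5.50, 7.998, 6.93 and 5.03 CPM in heart WT and 18.4, 9.26 and 9.24 CPM in heart KO. Its log2 fold change of 0.93 (SE 0.25, adjusted p = 0.0169) rested largely on heart KO 1, without which it was 0.52 and no longer passed (adjusted p = 0.0546). It was also not called without heart WT 4 (0.81, adjusted p = 0.0515). Icam2 was 11.7, 10.7, 9.67 and 10.7 CPM in heart WT and 23.2, 16.3 and 14.4 CPM in heart KO. All heart KO values were higher, and the fitted difference was 0.76 on the log2 scale (SE 0.16, adjusted p = 0.00537), and 0.53 without heart KO 1.

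Selp was close to the limit of detection in heart. It had 0, 13, 9 and 13 counts in heart WT 1 to 4 and 27, 22 and 34 counts in heart KO 1 to 3. The 0 came from the shallowest library, in which 3 counts, the limit that a count of 0 allows, would be 0.446 CPM, about the level of heart WT 2 (0.450 CPM) and heart WT 4 (0.460 CPM). Heart KO libraries held 0.665 to 1.02 CPM, and the log2 fold change of 1.14 had a 95% interval of 0.15 to 2.13 (adjusted p = 0.0702). Of 5 platelet markers tested in heart, 2 rose (Pf4 and Ppbp), against 17.2% of all genes called as higher. Clec1b was at -0.60 without passing. The summed levels of the 9 platelet markers were 7.67 to 9.81 TPM in heart WT and 19.4 to 28.5 TPM in heart KO. Their part was not tested.

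Sele ranged from 0.446 to 1.11 CPM in heart WT and from 0.209 to 0.852 CPM in heart KO, with 3 to 32 counts per library. The groups overlapped (log2 fold change -0.50, 95% interval -1.55 to 0.54, adjusted p = 0.434). Selplg, at 0.744 to 2.25 CPM in heart WT and 1.54 to 2.85 CPM in heart KO, overlapped as well (0.28, 95% interval -0.43 to 0.99, adjusted p = 0.526). Of 13 leukocyte markers tested, 6 rose (Tyrobp, Fcer1g, Cd68, Lyz2, C1qa and C1qb) and none fell, while 17.2% of all genes were called as higher. DESeq2 called 6 higher and 1 lower. Cd14 (-0.67), Ptprc (-0.61) and Mrc1 (-0.06) were below 0 without passing in edgeR. The list summed to 103 to 146 TPM in heart WT and 239 to 385 TPM in heart KO.

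Cd34 was 61.1 to 77.3 CPM in heart WT and 103, 67.2 and 70.0 CPM in heart KO. Only heart KO 1 exceeded the heart WT range (log2 fold change 0.17, 95% interval -0.15 to 0.50, adjusted p = 0.390). Jam2 was 146, 154, 169 and 141 CPM in heart WT and 159, 156 and 180 CPM in heart KO. These overlapped and the difference was 0.11 (95% interval -0.11 to 0.33, adjusted p = 0.415). F11r, at 31.4 to 34.4 CPM in heart WT and 35.3 to 36.5 CPM in heart KO, was apart between genotypes by a small step of 0.11 on the log2 scale (95% interval -0.08 to 0.31, adjusted p = 0.344).

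Relative to the 5 endothelial genes, Vcam1 was 0.71, Icam1 0.86 and Icam2 0.66 higher in heart KO on the log2 scale. These 3 were apart between genotypes, as 15.9% of all genes tested were in this direction, and each had an exact permutation p of 0.0286 (two-sided, adjusted p = 0.0667), the smallest that 4 against 3 libraries allow. Jam2 (0.20), F11r (0.11), Cd34 (0.14) and Selplg (0.51) overlapped, and Sele and Selp were too low for this measure (group mean TPM under 0.5). Set against all 15 endothelial markers, Icam2 alone stayed apart (0.42), while Vcam1 (0.46) and Icam1 (0.62) kept their direction but overlapped, and Jam2, F11r and Cd34 turned below 0. Of these 15, Pecam1, Emcn, Vwf and Ecscr rose in heart KO and Erg fell. This count and those of the lists below are to be read against the 33.4% of all genes called in heart. Among the other lists in heart, erythroid markers rose in 5 of 5 (341 to 779 TPM in heart WT and 2416 to 3506 TPM in heart KO), mesothelial in 4 of 5 (9.74 to 12.8 against 21.3 to 32.8 TPM) and smooth muscle in 4 of 7 with 1 lower (475 to 668 against 854 to 1006 TPM). Cardiomyocyte markers rose in 4 of 10 and fell in 2 (31325 to 40488 against 50461 to 59744 TPM), fibroblast markers rose in 1 of 6 and fell in 2 (193 to 235 against 297 to 357 TPM), and no adipocyte marker of 5 tested passed (286 to 314 against 341 to 503 TPM, with Ucp1 at 0 in all heart KO libraries). These sums, and those of platelet and leukocyte markers in heart, are in TPM, so the mitochondrial share of a library also bears on them. On TMM-scaled counts the median log2 fold change of the fibroblast markers was -0.15. The part of these cells in the member results was not tested.

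The genotype differences of both tissues were then compared by an interaction term in 1 edgeR fit. Jam2 alone differed (28.8% of 15938 genes did): its log2 fold change in heart was lower than that in ECs (difference -1.004, SE 0.21, adjusted p = 0.00406). Cd34 was next, with -0.49 (95% interval -0.996 to 0.02, adjusted p = 0.1402), and became a second call without EC WT 3 (-0.65, adjusted p = 0.0429) or without heart KO 1 (-0.70, adjusted p = 0.0296). For Vcam1 the difference was 0.04 (95% interval -0.47 to 0.55) and for Icam2 -0.14 (-0.64 to 0.36). Icam1 (0.31, -0.46 to 1.08), Selp (0.51, -0.30 to 1.31), Selplg (0.52, -0.60 to 1.63), F11r (-0.16, -0.48 to 0.16) and Sele (0.00, -1.37 to 1.37) had intervals that included 0 as well, and these intervals are wide enough to hold differences of the size seen within a tissue.

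**Figure D4:**
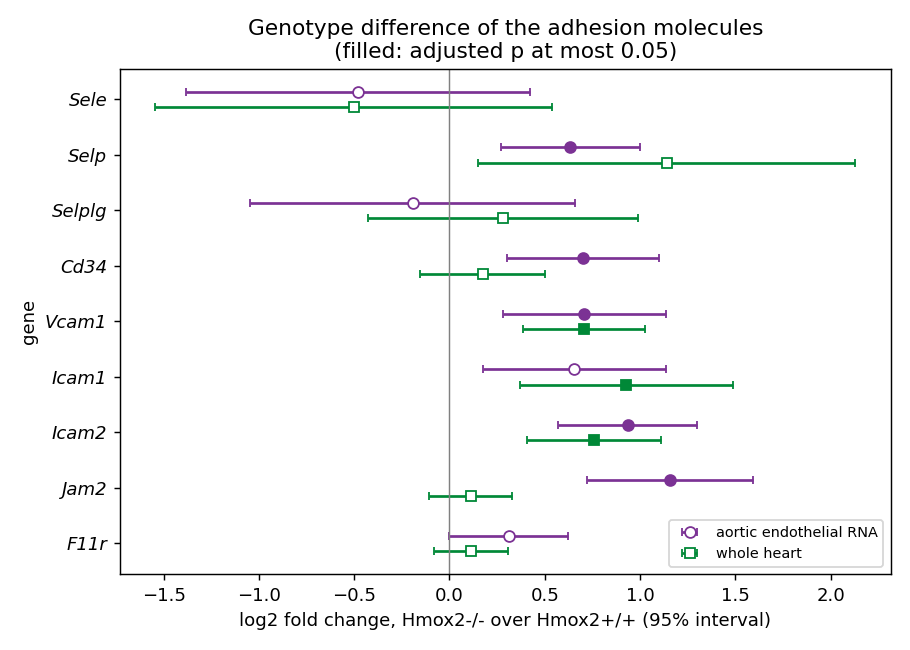
Log2 fold change of Hmox2-/- over Hmox2+/+ (x axis) with its 95% interval from edgeR for 9 adhesion molecules, in aortic endothelial RNA (circles, 3 against 3 libraries) and whole heart (squares, 4 against 3). Filled symbols passed an adjusted p of 0.05. Jam2 is the gene whose values are apart between tissues (1.16 and 0.11).

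Between tissues of Hmox2+/+ mice all 9 members tested differed, as 65.8% of genes did. Jam2 was higher in heart (log2 fold change 1.26, edgeR adjusted p = 4.09e-06) and the other 8 were lower. Selp stood out, with 0.707% of its EC level in heart (log2 fold change -7.14, SE 0.25, adjusted p = 1.43e-11). Sele (10.1% of the EC level), Vcam1 (12.8%), Icam1 (14.9%), Selplg (23.0%), Icam2 (25.7%), Cd34 (41.7%) and F11r (53.9%) followed. Tissue and RNA kit differ together in this comparison.

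The genes most like a member across the 13 libraries (Pearson's r of log2 CPM, 15938 genes) were Cfd, Slco2a1 and Ano6 for Selp (r = 0.996, 0.995 and 0.995), C1qtnf2, Ifitm2 and Spon1 for Vcam1 (all 0.996), and Ifitm2, C1qtnf2 and Ppib for Icam1 (0.994, 0.993 and 0.990). The points form an aortic and a heart cluster, so these r mostly describe the step between tissues.

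Estimated counts are given per transcript, and in 3 members a second transcript is singled out here. Vcam1-201 (9 exons, coding length 2217 bases) encodes the full molecule, and Vcam1-203 (5 exons, coding length 1035 bases) ends early in an exon of its own. Mice are known to make such a short, lipid-anchored VCAM-1. The last coding exons of both, on the minus strand of GRCm39 and read 5′ to 3′ along the transcript, show the 2 endings, with the stop codon in capitals. The coordinates are those of the coding bases before it.
Vcam1-203, chr3:115917336-115917442: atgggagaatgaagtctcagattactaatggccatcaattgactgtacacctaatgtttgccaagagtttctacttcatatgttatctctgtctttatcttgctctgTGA
Vcam1-201, chr3:115904529-115904686: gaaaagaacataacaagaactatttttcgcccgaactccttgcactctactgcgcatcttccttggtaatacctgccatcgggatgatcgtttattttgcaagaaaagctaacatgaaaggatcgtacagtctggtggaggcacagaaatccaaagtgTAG
Vcam1-203 took 22.2%, 16.2% and 19.7% of the Vcam1 TPM in EC WT 1 to 3 and 30.5%, 29.6% and 25.5% in EC KO 1 to 3, without overlap. In heart the shares were 2.64% to 14.7% in heart WT and 12.003% to 23.0% in heart KO, with overlap. The TPM of Vcam1-203 was 9.13, 11.2 and 15.7 in EC WT and 31.9, 31.01 and 22.1 in EC KO.

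Cd34 has 2 coding forms, of which Cd34-202 (coding length 975 bases) ends before the long cytoplasmic tail of Cd34-201 (coding length 1146 bases) is complete. Cd34-202 held 39.3% to 42.7% of the Cd34 TPM in EC WT and 38.9% to 41.5% in EC KO, so the make-up of Cd34 was alike in both while its level differed. In heart it held 28.3% to 38.7% in WT and 41.5% to 50.3% in KO libraries, without overlap. For Selplg, the retained-intron transcript Selplg-202, which has no coding sequence, held 0%, 1.76% and 0.833% in EC WT and 16.7%, 23.4% and 26.5% in EC KO, at a TPM of at most 2.33. The coding transcript Selplg-201 held 94.0% to 100% and 68.7% to 81.3%. These shares are kallisto's estimates from reads that the transcripts largely share, no test was run on them, and the transcript pairs were singled out after their values were seen.

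**Figure D5:**
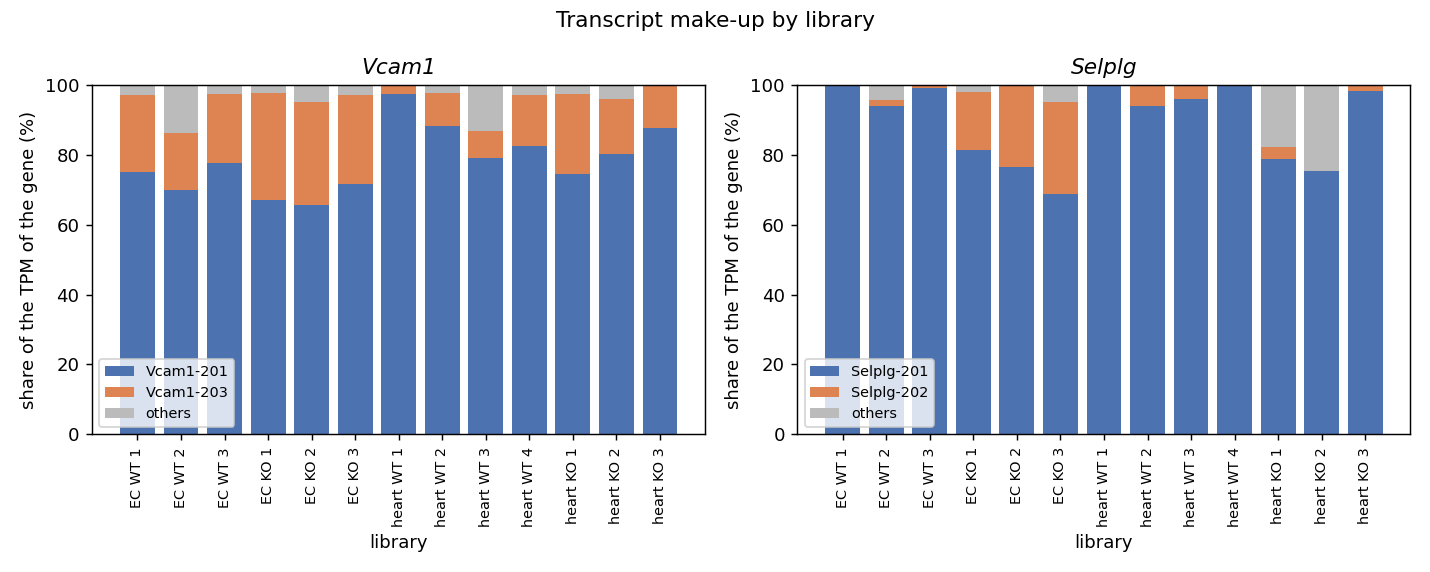
Share of the TPM of Vcam1 (left) and Selplg (right) held by each transcript (y axis, %) in each of the 13 libraries (x axis). Vcam1-203 takes 25.5% to 30.5% in the EC KO libraries and 16.2% to 22.2% in EC WT, and Selplg-202 takes 16.7% to 26.5% in EC KO and at most 6.15% in any other library.

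The counts in the pathway lists are to be read against the 18.1% of genes called in ECs and the 33.4% called in heart. Among 13 leukocyte counter-receptors (integrin chains and other ligands), Cd44, a hyaluronan and E-selectin receptor, alone rose in EC KO (log2 fold change 1.24, adjusted p = 0.0164) and none fell. In heart none rose and 4 fell, namely Itga4 (-0.68, the alpha chain of VLA-4), Itga9 (-0.57), Glg1 (-0.53) and Jam3 (-0.52). The medians were 0.01 in ECs and -0.41 in heart.

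Of 11 transmigration and junction partners, Pecam1 (0.86) and Esam (0.73) rose and Nectin2 (-0.997) fell in ECs, and Pecam1 (0.45) and the tetraspanin Cd151 (0.62) rose in heart. Of 10 actin anchors, radixin (Rdx, 0.43) rose and filamin A (Flna, -1.10) and vinculin (Vcl, -0.74) fell in ECs, and Vcl (-0.42) and Trio (-0.69) fell in heart. Flna and Vcl are also abundant in smooth muscle.

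Of 13 selectin ligand glycosylation enzymes tested, C1galt1c1, the chaperone of core 1 synthase, rose in both tissues (1.99 in ECs and 1.89 in heart). Gcnt1, the core 2 branching enzyme, rose in ECs (17.8 to 36.1 CPM in EC WT and 95.9 to 108 CPM in EC KO, log2 fold change 1.80) but fell in heart (17.0 to 47.7 against 3.35 to 4.22 CPM, -2.90). Chst4, a sulfotransferase of lymph node venules, was 1.26 to 4.23 CPM in EC WT with 1 to 3 counts per EC KO library, and rose in heart (0.446 to 0.762 against 1.59 to 2.75 CPM, 1.72). St3gal3 fell in ECs (-0.63) and C1galt1 in heart (-0.49).

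Of the NF-kB factors and targets, 2 of 23 tested rose in ECs, Ccl2 (1.81) and Il1r1 (1.11), and none fell. In heart 5 of 21 rose and none fell: Relb (1.47), Il1r1 (0.52), Tnip1 (0.49), Cx3cl1 (0.46) and Tnfrsf1a (0.44). The early feedback gene Nfkbia was at 0.02 in ECs (adjusted p = 0.949) and 0.27 in heart (adjusted p = 0.1499). Il6 did not pass the filter on low counts, with at most 4 counts in an EC WT library and 5 to 10 in EC KO libraries. Of 8 endothelial quiescence genes, Nos3 (0.92) and Tek (0.74) rose in ECs and Thbd (0.51) in heart, and none fell. Over all 6 lists the median was at most 0.43 in ECs and 0.28 in heart, and edgeR's adjusted p decided each of these calls.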

How the data were processed

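RNA of 13 libraries (oligo-dT selected, paired reads) was analysed. Estimated counts per transcript were deposited as the authors' kallisto 0.44.0 output (version from the submitters' processing notes; default settings, 1 library at a time), and the deposited TPM values come from the same runs. The methods name a GRCm39 index, while the notes also list mm10, so the exact index was not settled here. Both columns were summed per gene after 115140 of 118489 transcripts (97.2%) were matched to GENCODE M39 without version. Unmatched transcripts held 0.755% to 1.01% of counts. Default kallisto runs ignore strand.

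Estimated counts were rounded, filtered (filterByExpr, minimum count 10), scaled by TMM and tested with edgeR 4.0.16 (R 4.3.3, quasi-likelihood F-test) within each tissue, and over both tissues for the interaction and the tissue difference. P-values were adjusted by Benjamini-Hochberg over all genes tested, with calls at 0.05. The labels name separate samples, and p-values measure the spread between them. Each library was treated as a separate mouse, which is not settled for heart WT. CPM are TMM-scaled. Levels relative to the endothelial reference used log2(TPM + 0.1) and an exact permutation test over libraries, adjusted over the members with a group mean of at least 0.5 TPM. Intervals of log2 fold changes come from the same edgeR fits as the p-values and include the spread between libraries. Floors for counts of 0 cover counting error only.

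The members and the lists were chosen with earlier results of these data known. Named were the 10 members, the called genes of each pathway list (up to 6 per list and tissue), marker lists by their sums, the 3 genes most like Selp, Vcam1 and Icam1, and Hmox2 and Ddx3y as label checks. Nfkbia, Il6, Ptprc and transcripts were added after their values were seen. On simulated counts edgeR called 23 of 100 genes changed by 0.7 on the log2 scale in the EC design and 73 of 100 in the heart design, and all 100 changed by 2 in each, with 11 and 7 unchanged genes called among 15153 and 13668. For the interaction it called 5 and 92 of 100. The simulated spread was set by hand, larger in the EC design than in the heart design. Changed genes were drawn only above a mean count limit. These rates are therefore not the measured power for these data or for genes with low counts. Alternatives were DESeq2 1.42.0, other scalings, no filter, length-scaled TPM, the replicate number as a block, 1 fit of all libraries, leaving out mitochondrially encoded genes, another threshold, pseudocount or reference, and leaving out each library. A length and GC offset, scaling to endothelial genes, and EC KO 1 alone were chosen after seeing the data. Figures used matplotlib 3.10.9.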

Additional observations from a re-analysis of the deposited data

Results flagged for a closer look

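The genotype difference of Jam2 was not the same in both tissues (interaction in edgeR, heart minus EC -1.004 on the log2 scale, adjusted p = 0.00406). Jam2 rose in EC KO (1.16) and was at 0.11 in heart, and the interaction passed in each of the 13 fits without 1 library (-1.13 to -0.85).

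Among the 27 genes named from the pathway lists, 13 also had a genotype difference that differed between the tissues by the same test. Of all 15938 genes tested, 28.8% did. The named genes were picked because they had passed in ECs or heart in these same data, so the 2 shares are not comparable. Heart minus EC was lower for Gcnt1 (-4.65), Cd44 (-1.24), C1galt1 (-0.77), Nos3 (-0.66), Rdx (-0.65) and Tek (-0.62). It was higher for Chst4 (7.20), Relb (2.28), Flna (1.14), Nectin2 (0.99), St3gal3 (0.89), Cd151 (0.85) and Tnip1 (0.77). The value of Chst4 rests on 1 to 3 counts per EC KO library and is no measured fold. Gcnt1 passed in opposite directions in the 2 tissues.

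In heart WT, 1 library stood apart from the other 3 for Rdx, with a gap of 0.830 of the whole range. Of 37 groups of 4 libraries examined in this way, about 1 in 20 would be picked out by chance.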

How the results depend on the processing

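Under the alternatives run, 2 to 4 members were called in heart (main 3), 9 between tissues (main 9) and 1 to 2 for the interaction (main 1, 2 without EC WT 3 or heart KO 1). In ECs the count of 5 members stayed at 4 to 6 under other tools, scalings, filters and thresholds, but fell to 1 when single libraries were left out (1 to 6), to 2 when scaled to endothelial genes (1 higher and 1 lower) and to 0 with EC KO 1 alone, a fit with 1 Hmox2-/- library that is assumed to vary like the others. Members apart from the other genotype relative to the endothelial reference ranged from 3 to 6 in ECs (main 3; 5 without EC WT 2 and 6 without EC KO 3) and 3 to 5 in heart (main 3; 5 without heart WT 3), with 1 in heart when 15 markers served as reference. Groups that are apart stay apart when a library is left out. Those fits could therefore only keep or raise the count and do not measure its stability. Over all genes, 638 to 3596 were called in ECs when single libraries were left out (main 2766), and 6630 when scaled to endothelial genes. The pathway lists held 15 calls in ECs with edgeR and 25 with DESeq2. With the length and GC offset Vcam1 (0.17, adjusted p = 0.543) and Cd34 lost their calls in ECs and Icam1 gained one. The cause was not tested.

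Directions turned for F11r in ECs when scaled to endothelial genes (-0.23), for Selplg in ECs (-0.45 to 0.29 without single libraries, the latter without EC WT 2), and for Selplg (-0.068 to 0.50) and Cd34 (-0.045 to 0.29) in heart, where heart KO 1 decides. Differences between tissues near 0 turned for Vcam1 (-0.053 with upper-quartile scaling, -0.016 with length-scaled TPM, -0.15 to 0.17 without single libraries), Sele (-0.087, -0.061 and -0.50 to 0.38, and -0.091 with the replicate block), Icam1 (-0.088 to 0.49) and Icam2 (-0.35 to 0.013).

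Same-numbered libraries of both genotypes did not all deviate together (correlations of 0.21, 0.06 and 0.07 in ECs and -0.07, 0.10 and 0.05 in heart), so the replicate numbers were not taken as pairs. With the replicate number as a block 4 members were called in ECs, where Vcam1 was lost (0.71, adjusted p = 0.0532), and 2 in heart, where Icam1 was lost (0.70, adjusted p = 0.114), and the interaction stayed at 1. Low counts of Sele, Selp and Selplg in heart limit what could be detected there.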
